A study of Mus musculus and Homo sapiens with 33 samples.

Results

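Circular RNAs of LLC1 cells after doxorubicin were set against those after bortezomib. The members are the 125 circular RNAs, of 472 in the authors' deposited table, whose value was above 0 in at least 1 of the 3 doxorubicin and 3 bortezomib libraries. The other 347 were listed at 0 in all 6 libraries. The table holds only circular RNAs that the authors had called changed somewhere in the panel, per the labels, so the total number of circular RNAs in these cells is unknown.

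The study looked for circular RNAs that accompany immunogenic cell death, a form of dying that alerts the immune system, in lung cancer cells under drug stress. LLC1 is a mouse Lewis lung carcinoma line, labelled wild type in every group used here. Doxorubicin was labelled 4 mM for 48 h, bortezomib 100 nM for 48 h, and the control DMSO, the solvent, for 48 h. The doxorubicin dose is given as the label has it. Its unit could not be checked from the files and may not be the one meant, so the dose is uncertain. Oxaliplatin, dactinomycin, (R)-crizotinib with cisplatin and pemetrexed with cisplatin made up the rest of the panel of 21 libraries, with 3 libraries per group. Nothing in the labels ties the libraries of a group to separate cultures, so a p-value measures the spread between these libraries, which may be technical. None of the 7 epithelial, 6 leukocyte, 3 endothelial or 5 fibroblast marker genes hosted a circle in the table, so the labelled cell type could not be checked from these values. Fewer cells of a type and less RNA per cell cannot be told apart in bulk RNA.

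A circular RNA forms when the spliceosome joins the end of a downstream exon back to the start of an upstream exon of the same transcript. The ring has no free ends, resists exonucleases and often outlives the linear messenger RNA of its host gene. Doxorubicin is an anthracycline that intercalates into DNA and traps topoisomerase II on broken strands. Bortezomib blocks the chymotrypsin-like site of the proteasome, so proteins tagged with ubiquitin pile up. The compounds share no scaffold, an anthracycline on one side and a peptide boronic acid on the other, and their labelled doses differ, so the comparison is of the treatments as given.

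The join itself is what identifies a circular RNA. The joins below belong to the Rnf114 circle, which passed the test described further on, to circles seen mostly after 1 drug without passing it, to circles present in all 6 libraries, and to circles of genes with more than 1 member. Each is written 5′ to 3′ in the sense of the transcript, with the last 20 bases of the downstream exon in lower case and the first 20 bases of the upstream exon in capitals, so that the change of case marks the back-splice. The letters come from the GENCODE M21 transcripts on mm10, not from reads, and all are from circles that lie wholly in coding sequence.
Rnf114 exons 4-6, chr2:167507047-167511326, plus strand: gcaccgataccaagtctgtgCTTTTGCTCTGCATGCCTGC
Ptbp3 exons 3-5, chr4:59514274-59524476, minus strand: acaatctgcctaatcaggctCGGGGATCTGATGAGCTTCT
Dennd1b exons 6-9, chr1:139053346-139062971, plus strand: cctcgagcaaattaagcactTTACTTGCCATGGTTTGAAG
Bub1b exons 17-19, chr2:118631759-118635277, plus strand: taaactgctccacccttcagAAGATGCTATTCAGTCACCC
Rad52 exons 10-11, chr6:119920110-119921028, plus strand: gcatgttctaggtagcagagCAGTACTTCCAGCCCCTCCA
Ect2 exons 7-22, chr3:27115396-27145059, minus strand: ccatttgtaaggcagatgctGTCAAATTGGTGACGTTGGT
Tiam2 exons 15-26, chr17:3477175-3516717, plus strand: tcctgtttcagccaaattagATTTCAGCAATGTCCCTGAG
Spen exons 2-3, chr4:141516836-141522392, minus strand: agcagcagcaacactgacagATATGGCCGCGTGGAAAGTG
Bbs9 exons 14-17, chr9:22643745-22659145, plus strand: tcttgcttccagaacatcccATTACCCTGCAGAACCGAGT
Cep112 exons 10-18, chr11:108498244-108531465, plus strand: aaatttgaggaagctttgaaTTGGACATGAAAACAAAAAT
Cep112 exons 14-18, chr11:108518679-108531465, plus strand: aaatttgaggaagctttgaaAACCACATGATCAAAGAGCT
Mipol1 exons 5-7, chr12:57325524-57332459, plus strand: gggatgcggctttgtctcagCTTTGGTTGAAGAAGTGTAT
Mipol1 exons 5-8, chr12:57325524-57364234, plus strand: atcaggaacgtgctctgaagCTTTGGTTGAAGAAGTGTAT

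The Cep112 pair shares its lower-case part, the end of exon 18, and differs in the exon it is joined back to. The Mipol1 pair shares its capital part, the start of exon 5, and differs in the exon that is joined to it. The Rnf114 circle was the one called higher after bortezomib, so 300 of its 373 nt are shown around the back-splice, 150 before it in lower case and 150 after it in capitals. It runs from exon 4 to exon 6 of an annotated transcript of 8 exons.
Rnf114 exons 4-6, around the back-splice: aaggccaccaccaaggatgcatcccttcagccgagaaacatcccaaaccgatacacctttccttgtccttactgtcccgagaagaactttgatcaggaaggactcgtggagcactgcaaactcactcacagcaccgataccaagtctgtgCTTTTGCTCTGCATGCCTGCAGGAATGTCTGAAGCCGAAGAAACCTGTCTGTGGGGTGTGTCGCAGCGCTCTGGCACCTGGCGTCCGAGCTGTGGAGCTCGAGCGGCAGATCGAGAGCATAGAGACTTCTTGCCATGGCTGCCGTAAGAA

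The number of circles, their summed signal and their structure did not separate the drugs. Doxorubicin libraries 1, 2 and 3 held 38, 38 and 58 circles above 0, and bortezomib libraries 45, 55 and 40. The means were 44.7 ± 11.5 and 46.7 ± 7.64 (SD, n = 3 each), with overlapping ranges (exact permutation test, two-sided, p = 0.8, where 3 against 3 cannot go below 0.1). Values are the authors' signal per circle in a unit the files do not name. In most rows, value times circle length fell on whole multiples of 1 constant per library, which gives the back-splice reads behind a value. These summed to 774, 716 and 1590 after doxorubicin and to 989, 1374 and 668 after bortezomib (exact permutation test, two-sided, p = 0.9). The sums leave out values that did not resolve to whole reads. The resolved share ran from 89.5% in doxorubicin library 1 to 100% in bortezomib library 3. By these sums, the third doxorubicin and the second bortezomib library had the most reads and also the most circles of their drug. The summed value was 119331, 118561 and 185948 after doxorubicin and 112546, 125137 and 99934.5 after bortezomib (exact permutation test, two-sided, p = 0.3). Over 8 such summaries of a library, which included spliced length, exon number, genomic span and GC content, every Benjamini-Hochberg adjusted p was 1.

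**Figure D1:**
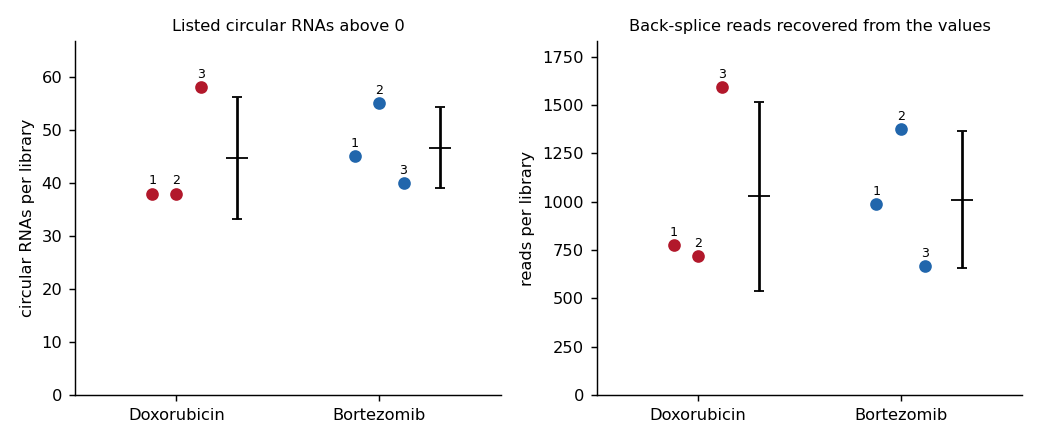
Left, circular RNAs above 0 in each library; right, back-splice reads recovered from the values in each library, both axes starting at 0. Points are libraries with their numbers, and black marks are the mean and SD of 3. The doxorubicin libraries (38, 38 and 58 circles) and the bortezomib libraries (45, 55 and 40) overlap, and the library with the most reads of each drug also has the most circles.

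Libraries shared only a part of their circles, within a drug as well as between the drugs. Of the 125 circles, 55 were above 0 after both drugs, 36 after doxorubicin alone and 34 after bortezomib alone. The shared 55 made up 60.4% of the 91 circles seen after doxorubicin and 61.8% of the 89 seen after bortezomib. A single library accounted for 27 of the 36 and for 24 of the 34, so 51 circles were seen in only 1 of the 6 libraries. The third doxorubicin library alone held 14 of these and the second bortezomib library 12, the deepest of each drug. For any pair of libraries, the circles present in both were given as a share of those present in either. Between doxorubicin libraries that share was 24.7% to 28.8%, between bortezomib libraries 25.0% to 33.8%, and across the drugs 14.7% to 31.4%, with medians of 26.3%, 28.2% and 25.7%. As a share of the circles of 1 library, the overlap ran from 25% to 60%. The lowest was bortezomib library 3 in doxorubicin library 2, and the highest bortezomib library 3 in bortezomib library 2. All these are descriptions of pairs that share libraries, with no test.

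**Figure D2:**
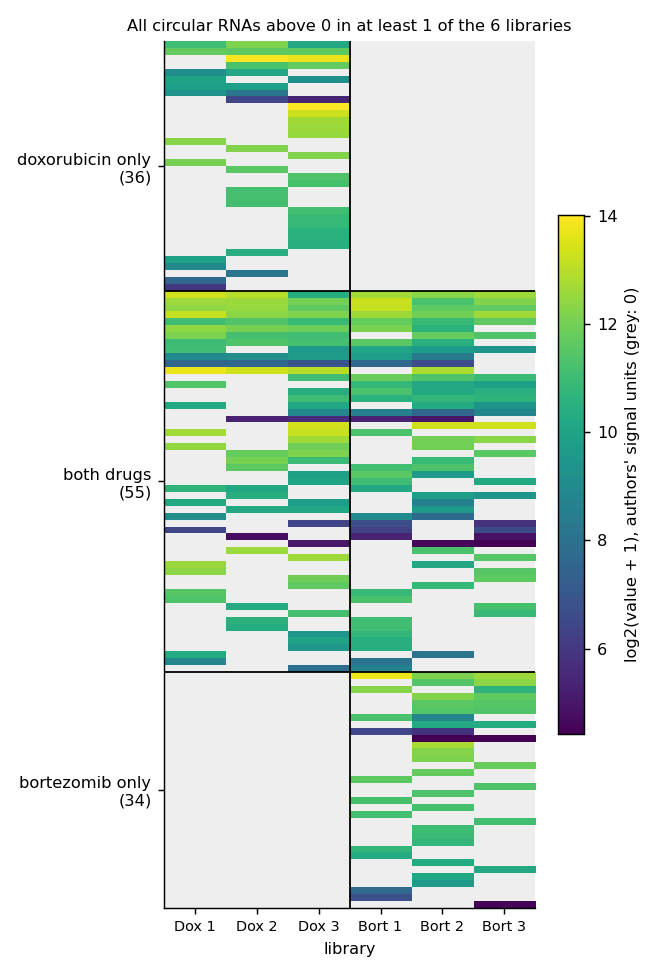
Every one of the 125 circular RNAs (lines of the map) in the 6 libraries (columns), with colour for log2(value + 1) and grey for a value of 0. Of the circles seen after 1 drug alone, 27 of 36 (doxorubicin) and 24 of 34 (bortezomib) come from a single library.

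A value of 0 has a limited meaning at this depth. The smallest recovered value rested on 2 reads, so a 0 may hide a single read. Zeros also stood beside values with many reads in other libraries of the same drug. The Ptbp3 circle of exons 3 to 5 had 39 and 64 reads in doxorubicin libraries 2 and 3 and 0 in library 1. A junction on chromosome 15 had 248 and 260 reads in bortezomib libraries 1 and 2 and 0 in library 3. A 0 therefore does not show that a circle was absent, and the reason for such zeros was not tested. For a single circle listed at 0 in all 3 libraries of a drug, no fold or log2 difference is given, since it would be set by the pseudocount. The group medians further on take in such circles and have the same limit.

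The circles present in every library of a drug were few. Doxorubicin had 13 such circles, of which 5 were also above 0 in all 3 bortezomib libraries, 5 in 2 of them, 1 in 1 and 2 in none. Bortezomib had 12, of which 5 were above 0 in all 3 doxorubicin libraries, 1 in 2, 5 in 1 and 1 in none. For these circles the coefficient of variation over 3 libraries had a median of 25.6% after doxorubicin and 32.2% after bortezomib. The lowest was that of the Neil3 circle after doxorubicin, at 3.00%, and the highest that of the Nfat5 junction after doxorubicin, at 71.4%. The Neil3 values rested on 23, 22 and 46 reads, whose counting error is wider than 3.00%.

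Of 472 rows tested, 2 circles (0.424%) passed the test of doxorubicin against bortezomib at an adjusted p of 0.05, 1 higher after doxorubicin (0.212%) and 1 higher after bortezomib (0.212%). The test was limma on log2(value + 1) over all 21 libraries of the panel, with Benjamini-Hochberg adjustment over the whole table. At an unadjusted p under 0.05 there were 24 circles (5.08%), 10 higher after doxorubicin (2.12%) and 14 higher after bortezomib (2.97%). The libraries of the drugs did not overlap for 4 circles (0.847%). The 3 circles higher in every doxorubicin library (0.636%) were those of Neil3, Strbp and Dennd1b, and the 1 higher in every bortezomib library (0.212%) was that of Rnf114. All these shares are of 472 rows, of which 347 were at 0 in all 6 libraries and so could not differ between the drugs.

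Rnf114 encodes a RING-type ubiquitin ligase with zinc fingers, one of the enzymes that mark proteins for the proteasome. Its circle of exons 4 to 6 had values of 13705, 4553 and 6046 after bortezomib and was listed at 0 in all 3 doxorubicin libraries. The bortezomib values rested on 37, 25 and 21 back-splice reads. All 3 bortezomib libraries stood above every doxorubicin library, and they differed 3.01-fold among themselves. The lowest bortezomib value would have stood for 9.88, 10.0 and 20.5 reads in doxorubicin libraries 1, 2 and 3, where none were listed. The limma adjusted p was 0.00107. The circle was also at 0 in DMSO, dactinomycin and both cisplatin combinations. After oxaliplatin it was above 0 in 1 of 3 libraries, at 1137. The table lists only circles the authors had called changed, and this one may have entered it through its bortezomib values. Its p is therefore not independent of the choice of rows. Groups at 0 in every library also add no spread to the fit over the panel.

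Neil3 encodes a DNA glycosylase that removes oxidised bases and helps to undo crosslinks between strands. Its circle of exons 3 to 8 (chr8:53599099-53609538, minus strand, mm10) is 1182 nt long, a multiple of 3, and lies wholly in coding sequence. It had values of 3346, 3156 and 3218 after doxorubicin, from 23, 22 and 46 back-splice reads, and was listed at 0 in all 3 bortezomib libraries. The doxorubicin libraries agreed within 1.06-fold although their reads differed. Counting error on so few reads is wider than that spread, so the closeness does not measure the precision of the level. At the lowest of these values, the bortezomib libraries would have held 27.0, 54.9 and 34.7 reads. The limma adjusted p was 0.00605. Unlike the Rnf114 circle it was widespread in the panel, at 1135 ± 151 after dactinomycin, 812 ± 175 after oxaliplatin, 1170 ± 776 after crizotinib with cisplatin and 1314 ± 1210 after pemetrexed with cisplatin (SD, n = 3 each). DMSO and bortezomib were the groups in which every library was at 0. The DMSO libraries held only 5, 5 and 4 of the table's circles above 0, on 350, 329 and 307 back-splice reads. A 0 in DMSO therefore does not show that a circle was absent without a drug.

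In the fit restricted to the 6 libraries of these drugs, over the 125 circles, neither call held, with a limma adjusted p of 0.0603 for Rnf114 and 0.0844 for Neil3, and 5 circles had an unadjusted p under 0.05.

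**Figure D3:**
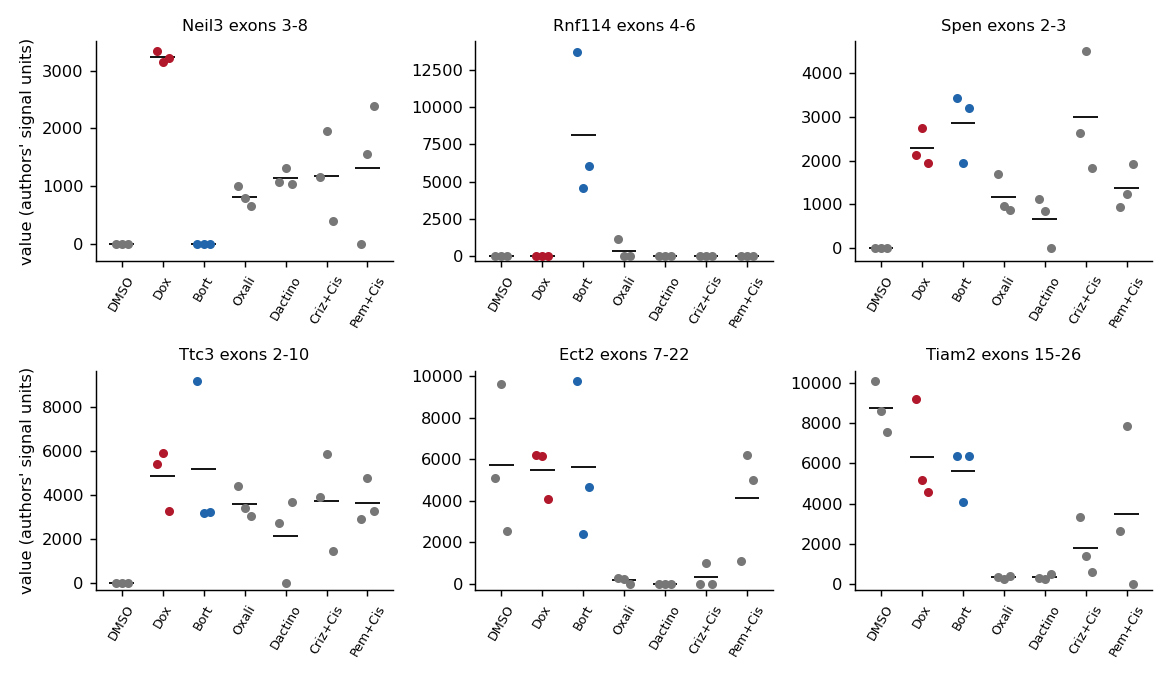
Values of 6 circular RNAs in all 21 libraries of the panel, on linear axes in the authors' signal units; points are libraries and black lines are means of 3. The Neil3 circle is at 0 in every DMSO and bortezomib library, the Rnf114 circle is above 0 in the 3 bortezomib libraries and 1 oxaliplatin library, and the Spen, Ttc3, Ect2 and Tiam2 circles overlap between doxorubicin and bortezomib.

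Other circles leaned towards doxorubicin without passing the adjusted test. Strbp encodes an RNA-binding protein of double-stranded RNA, and its circle of exons 2 to 4 had values of 2157, 4558 and 1186 after doxorubicin and 0 in the 3 bortezomib libraries. The limma adjusted p was 0.105. Its values did not resolve to whole reads, so the reads behind them are unknown.

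Ptbp3, a polypyrimidine tract-binding regulator of splicing, gave a circle of exons 3 to 5 with values of 0, 16571 and 13263 after doxorubicin and 0 in every bortezomib library. They rested on 39 and 64 reads, and the first of them was the highest of any circle in the second doxorubicin library. The limma adjusted p was 0.108. The first doxorubicin library was at 0, so the drugs overlapped for this circle.

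Dennd1b encodes an exchange factor for Rab35, a small GTPase of endosomes. Its circle of exons 6 to 9 is 316 nt long and had values of 13605, 10194 and 8112 after doxorubicin and 0, 7310 and 0 after bortezomib. Every doxorubicin library was above every bortezomib library, yet the single bortezomib value came from 34 reads, more than in any doxorubicin library. The log2 difference, doxorubicin minus bortezomib, was 9.07 (SE 3.10, limma adjusted p = 0.404). Bortezomib values of 0 enter it, so its size depends on the pseudocount and does not measure a fold. The mean values were 10637 after doxorubicin and 2437 after bortezomib.

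The circle of exons 17 to 19 of Bub1b, a kinase of the mitotic checkpoint, was present in 1 library alone. It had 16453, from 78 reads, in the third doxorubicin library and 0 in the other 5. Yet it was above 0 in all 3 libraries of dactinomycin (5352 ± 586), of oxaliplatin (4418 ± 673) and of crizotinib with cisplatin (4667 ± 2810) (SD, n = 3 each). The mean after doxorubicin, 5484, therefore described a single library.

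On the bortezomib side, several circles were above 0 in 2 or 3 bortezomib libraries and in at most 1 doxorubicin library. Psd3, an exchange factor for the GTPase Arf6, gave a circle of exons 2 to 6 (chr8:67882981-67908889, minus strand) at 0, 2841 and 2733 after bortezomib and 0 after doxorubicin (limma adjusted p = 0.108). The Tiam2 circle of exons 2 to 3 had 0, 1249 and 1263 after bortezomib and 0 after doxorubicin (limma adjusted p = 0.108). For both circles the first bortezomib library was at 0 and so overlapped the doxorubicin libraries.

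Tbc1d14 encodes a Rab regulator of autophagy, and its single-exon circle of exon 2 had 2420, 1190 and 1447 after bortezomib and 0, 0 and 1337 after doxorubicin. Cep350, a centrosome protein, gave a circle of exons 2 to 6 at 1496, 1738 and 1585 after bortezomib and 0, 0 and 2116 after doxorubicin. In both cases the third doxorubicin library was within or above the bortezomib range. The limma adjusted p was 0.108 for Tbc1d14 and 0.165 for Cep350. Both circles were above 0 in all 3 libraries of every other drug treatment of the panel.

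**Figure D4:**
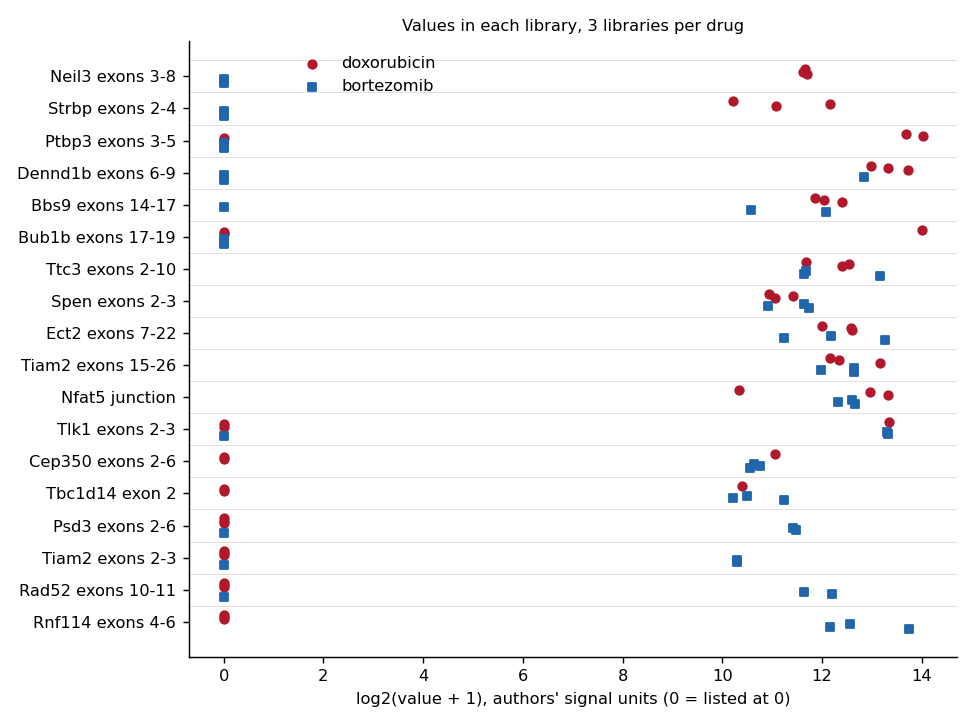
Values of 18 circular RNAs in each library as log2(value + 1), with 0 for a value of 0; red circles are doxorubicin and blue squares bortezomib libraries, 3 each, offset vertically so that they can be told apart. The Neil3 and Rnf114 circles, the ones that passed the test, have 3 points of 1 drug apart from 3 at 0, whereas Ptbp3, Psd3 and others have a library of the same drug at 0.

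The 5 circles above 0 in all 6 libraries had overlapping values after the drugs. Ttc3, a ubiquitin ligase, gave a circle of exons 2 to 10 with 5424, 5942 and 3284 after doxorubicin and 9200, 3175 and 3262 after bortezomib. Spen encodes a transcriptional repressor, and its circle of exons 2 to 3 had 2139, 2741 and 1954 after doxorubicin and 3437, 1943 and 3205 after bortezomib. Neither was above 0 in DMSO, and the ranges of the drugs overlapped for both. The log2 differences were 0.05 (SE 2.13) for Ttc3 and -0.30 (SE 1.83) for Spen, each with a limma adjusted p of 1. The standard errors come from the whole panel, where these circles are at 0 in some libraries, so a difference of several fold could not have been detected.

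Ect2 encodes an exchange factor for small GTPases that starts the cleavage furrow in cytokinesis. Its circle spans 16 exons, from 7 to 22, the most of any member, with 1824 nt in a multiple of 3. It had 6222, 6135 and 4080 after doxorubicin and 9771, 2421 and 4651 after bortezomib, a log2 difference of 0.17 (SE 2.33, limma adjusted p = 1). The value in DMSO was 5741 ± 3579 (SD, n = 3), which overlapped both drugs. After dactinomycin it was listed at 0 in all 3 libraries.

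Tiam2 encodes an exchange factor for Rac, the GTPase of membrane ruffles. Its circle of exons 15 to 26 had 9186, 5192 and 4594 after doxorubicin and 6396, 4064 and 6348 after bortezomib, a log2 difference of 0.14 (SE 2.23, limma adjusted p = 1). DMSO stood at 8770 ± 1280 (SD, n = 3). The drugs overlapped each other, and doxorubicin overlapped DMSO, whereas every bortezomib library was below every DMSO library, whose lowest was 7565. The junction inside Nfat5, a transcription factor of the osmotic stress response, had 10204, 7989 and 1299 after doxorubicin and 6510, 5098 and 6184 after bortezomib, beside 9639 ± 6937 in DMSO (SD, n = 3). The value of the third doxorubicin library, from 9 reads, was the lowest of the 6.

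In all, 5 of the 125 members were above 0 in a DMSO library and 120 were at 0 in all 3. The DMSO libraries had few reads and few circles above 0, and the part of depth in these zeros was not tested. Beside Ect2, Tiam2 and Nfat5 the 5 include a junction shared by the overlapping genes Gm38394 and Zc3h11a and a junction on chr15:61864604-62038201 that no annotated gene spans. The chromosome 15 junction had 192, 194 and 119 after doxorubicin and 197, 102 and 0 after bortezomib. The value is per length, here a span of 173598 nt. In reads it was the largest member of 5 libraries, with 194, 199 and 249 after doxorubicin and 248 and 260 in the first bortezomib libraries. The third bortezomib library had none.

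Of the 112 host genes, 8 gave more than 1 member circle, and their circles were not always present in the same libraries. In Bbs9, a subunit of the BBSome complex that sorts cargo into cilia, the circle of exons 14 to 17 had 5410, 4191 and 3716 after doxorubicin and 4346, 1527 and 0 after bortezomib. The Bbs9 circle of exons 3 to 6 had 0 in all doxorubicin libraries and 2440, 450 and 0 after bortezomib, on 8 and 3 reads. The drugs overlapped for both circles, with a limma adjusted p of 1 for the downstream and 0.749 for the upstream circle.

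Tiam2 had the same arrangement, with the downstream circle in all 6 libraries and the upstream circle of exons 2 to 3 in 2 bortezomib libraries. In DMSO the downstream Tiam2 circle was present and the upstream one at 0, and after dactinomycin the upstream circle stood at 670 ± 137 beside 340 ± 125 for the downstream one (SD, n = 3 each). Cep112, a centrosome gene, gave a circle of exons 10 to 18 at 1244, 0 and 1110 after doxorubicin and 0, 1263 and 666 after bortezomib. The shorter Cep112 circle that shares its exon 18 join, from exon 14, was seen once, at 2098 in the second bortezomib library.

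Mipol1, named for a breakpoint in mirror-image polydactyly, gave 3 circles. The one of exons 5 to 7 had 5647, 0 and 3949 after doxorubicin and 0, 4056 and 0 after bortezomib. The one of exons 5 to 8 had 0, 3062 and 0 after doxorubicin and 2183, 2607 and 0 after bortezomib. The one of exons 2 to 4 had 0, 0 and 2631 after doxorubicin and 0 after bortezomib. The third doxorubicin and the second bortezomib library each held 2 of the 3 circles, and the other 4 libraries at most 1. No circle of Cep112 or Mipol1 passed the test.

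**Figure D5:**
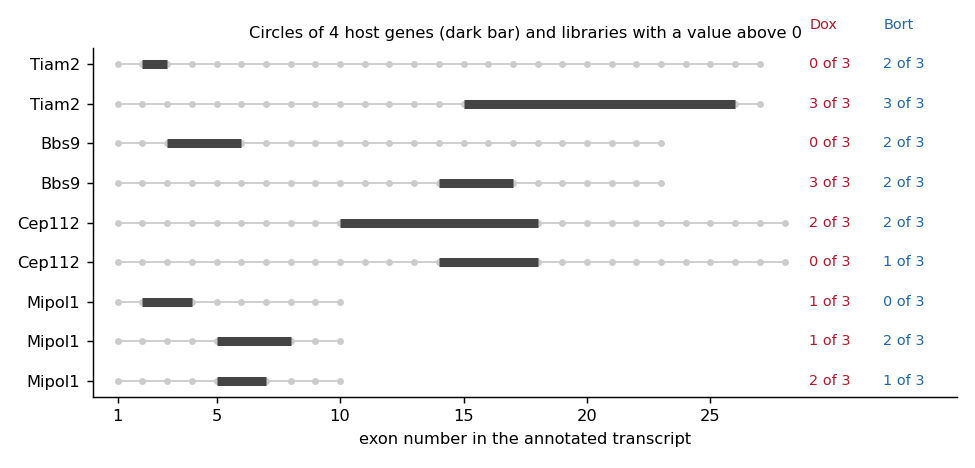
Circles of Tiam2, Bbs9, Cep112 and Mipol1 drawn by exon number in the annotated transcript (dark bar, with grey dots for all exons), with the number of doxorubicin and bortezomib libraries above 0 at the right. The upstream Tiam2 and Bbs9 circles are above 0 in 2 of 3 bortezomib and 0 of 3 doxorubicin libraries.

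Tlk1, a kinase of chromatin assembly, gave a circle of exons 2 to 3 with 0, 0 and 10390 after doxorubicin and 0, 10315 and 10120 after bortezomib. At 191 nt it was the shortest member on annotated exons, and its 24, 29 and 18 reads gave nearly the same value in 3 libraries. The longer Tlk1 circle, exons 2 to 4, was above 0 in the first doxorubicin and in bortezomib libraries 1 and 3.

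Host genes were also grouped by lists of genes by function, with counts and medians only. The lists do not hold every gene of a function, so the counts below are of listed genes and not of whole classes. For all 125 members, 36 were seen after doxorubicin alone, 34 after bortezomib alone and 55 after both, with a median log2 difference of 0.09. The median over all 472 rows was 0, a value fixed by the 347 rows at 0 in all 6 libraries. A log2 difference of a circle at 0 in libraries of a drug depends on the pseudocount, so these medians do not measure a fold. Circles that are named here for being in a group and that were seen in a single library were chosen after their values were seen.

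Listed ubiquitin ligases and their adaptors hosted 6 members, 2 seen after doxorubicin alone, 3 after bortezomib alone and 1 after both, with a median log2 difference of -1.75. Circles of Fbxo8, Fbxo42 and Ube2cbp, seen after doxorubicin alone, and of Fbxw4, seen after both drugs, were on no list. These counts therefore show no lean of ubiquitin genes towards a drug. The listed ones seen after bortezomib alone were Rnf114, Trim24, which acts on p53, and Btbd9, a cullin adaptor. Trim24 had 2206 in the third and Btbd9 1638 in the first bortezomib library, and 0 in the other 5. Arih2, a ligase that works with cullins, was seen after doxorubicin alone, at 1000, 0 and 601. Of the listed deubiquitinases, only Usp12 was matched to a member, at 2606 in the second bortezomib library. A junction within both Fgfr2 and Zranb1, the latter also a deubiquitinase, was matched to no list, since its host is a joined name. It had 503, 567 and 760 after doxorubicin and 866, 341 and 0 after bortezomib. No proteasome subunit and no chaperone or unfolded protein response gene on the lists hosted a circle anywhere in the table.

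Listed DNA repair and damage signalling genes hosted 5 members, 3 seen after doxorubicin alone and 2 after bortezomib alone, with a median of 2.54. Each of the 5 was at 0 in all 3 libraries of 1 drug, so the size of this median is set by the pseudocount. Beside Neil3 the doxorubicin ones were Bard1, the partner of Brca1, with 1485 in the third library, and Rnf169, which acts at double-strand breaks, with 196 in the first. Rad52, a recombination protein, lay on the other side. Its circle of exons 10 to 11 had 0, 4708 and 3190 after bortezomib, on 21 and 9 reads, and 0 in every doxorubicin library (limma adjusted p = 0.749). Esco1, a cohesin acetyltransferase, had 1966 in the second bortezomib library. Of these, Neil3 alone passed the test. No listed p53 target and no listed replication gene hosted a member, although 1 and 4 circles of those lists were in the table.

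Listed RNA-binding and splicing genes hosted 6 members, 4 seen after doxorubicin alone, 1 after bortezomib alone and 1 after both, with a median of 4.14. The size of this median is set by the pseudocount, since it falls between circles seen in 1 library alone. The doxorubicin ones were Strbp, Ptbp3, Hnrnpll, a splicing regulator, and Zcchc7, of the nuclear exosome machinery. Hnrnpll and Zcchc7 were each seen in the third doxorubicin library alone, at 6398 and 4690. Tnrc6a, a partner of Argonaute in microRNA silencing, had 4813 in the second bortezomib library. None of the 6 passed the test.

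Small GTPase regulators were the largest listed group, with 14 members, 5 after doxorubicin alone, 2 after bortezomib alone and 7 after both, and a median of 1.82. The list is not complete, and circles of Rabgef1 and Rp2, seen after both drugs, were not on it. Fgd6, an exchange factor for Cdc42, had 664, 291 and 0 after doxorubicin and 0 after bortezomib, for its single-exon circle of exon 2. Rapgef6, an exchange factor for Rap, had 0, 0 and 6405 after doxorubicin and 0, 3987 and 5041 after bortezomib. Arhgap32, a GTPase-activating protein, had 0, 1177 and 1148 after doxorubicin and 0, 786 and 0 after bortezomib. None of the 14 passed the test.

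Mitosis and centrosome genes hosted 6 members, 2 after doxorubicin alone, 1 after bortezomib alone and 3 after both, with a median of 0.20. Chromatin modifiers hosted 7, with 2, 1 and 4 in the same order and a median of -0.30. Kinases and phosphatases of growth signalling hosted 7, with 1, 2 and 4 and a median of -0.44. Among the kinases, Lats2 of the Hippo pathway had 0, 4387 and 1987 after doxorubicin and 0, 1884 and 0 after bortezomib. Prkce, a protein kinase C, had 0, 1381 and 0 after doxorubicin and 0, 885 and 700 after bortezomib. No member of these 3 groups passed the test.

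The circles seen after the drugs had similar exon structures. Both ends lay on exon ends of 1 transcript in 107 members, 14 others lay within a gene, and 4 were spanned by no single annotated gene. Genes that lie inside those 4 intervals or partly overlap them were not searched for. On the 107, the median circle had 3 exons and 608 nt, and 17 were single exons. Circles seen after doxorubicin alone had a median of 683 nt, those after bortezomib alone 518 nt and those after both 676 nt. None included the first or the last exon of its transcript, and 58 (54.2%) began at exon 2, beside 53.8% of the table's circles that are not members. Of the 72 that were wholly coding, 28 (38.9%) had a length that is a multiple of 3, beside 32.5% among the others. Per library, the median spliced length was 683 ± 82.8 nt after doxorubicin and 636 ± 57.9 nt after bortezomib (SD, n = 3 each, exact permutation test, two-sided, p = 0.6).

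Every member was above 0 in at least 1 library of another group of the panel. At least 1 dactinomycin library held 123 of the 125, at least 1 oxaliplatin library 121, crizotinib with cisplatin 108 and pemetrexed with cisplatin 64. Of the 36 circles seen after doxorubicin alone, 33 were above 0 in all 3 dactinomycin libraries, and of the 34 seen after bortezomib alone, 25 were. Dactinomycin libraries had 7996 to 8921 back-splice reads in the table, against 668 to 1590 in the 6 libraries compared here, and the part of depth in these counts was not tested.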

How the data were processed

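Total RNA of 21 LLC1 libraries was sequenced after ribosomal depletion with stranded preparation, per the labels' protocols. FastQC, STAR, featureCounts, MultiQC and the build mm10 are listed in the submitters' processing notes, and no circular RNA caller is given in the sources used here. The authors deposited 1 signal value per circular RNA and library for rows they had called changed. The unit is not named. Reads were recovered as value times length over a library constant, within 0.002 reads, for 116 of 125 members in every library. They served to describe depth, cover counting error only and are not total depth.

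Ends were matched to GENCODE M21. On log2(value + 1), limma 3.58.1 (R 4.3.3, mean-variance trend) was fitted to all 472 rows, 21 libraries and 7 groups. The size of a difference from a value of 0 depends on the pseudocount. Benjamini-Hochberg adjustment to 0.05 ran over all rows. The error rate of limma on values with so many zeros was not tested. Single values per library were compared by exact permutation. Alternatives were other pseudocounts, scalings, filters and sample sets, recovered reads, a replicate block and leaving out each library. No count test was run, since the values are not counts.

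Circles were named if they passed the test, were above 0 in all libraries of 1 drug and none of the other, in all 6 or in DMSO, were among the 6 highest means, or were above 0 in 2 libraries of a drug with a host on a functional list, or shared a host gene. The members and lists were chosen with earlier results of these data known.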

Additional observations from a re-analysis of the deposited data

How the results depend on the processing

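With a pseudocount of 10 or 100, libraries scaled to the same sum, recovered reads, or no mean-variance trend, the Neil3 and Rnf114 circles remained the 2 calls. With only the 6 libraries of the drugs there were 0 calls by limma and 5 circles at an unadjusted p under 0.05. Among the 74 circles above 0 in at least 2 of the 6 libraries there were 6 calls, which added Strbp, Ptbp3, Dennd1b and Arih2, all higher after doxorubicin. That filter uses the libraries compared and tests fewer circles. Without 1 library there were 2 to 6 calls, which included Neil3 and Rnf114 in every case. Leaving out the first bortezomib library gave 5, adding Psd3, Tiam2 exons 2-3 and a chromosome 16 junction, and leaving out the first doxorubicin library gave 6, adding, among others, Ptbp3, Dym and Tulp4. Without the third doxorubicin library there were 5, adding Cep350, Tbc1d14 and Syt14. The adjusted p ranged from 7.31e-08 to 0.0603 for Rnf114 and from 0.00264 to 0.0844 for Neil3. With a replicate block the calls stayed at 2, with an adjusted p of 0.00177 for Rnf114 and 0.0119 for Neil3. Deviations of libraries with the same number correlated at 0.086, 0.039 and 0.148, so the numbers were not taken as pairing. Every library correlated best with its own number in the other drug, a hint from the data. The difference in circles per library, -2, was -4.5 without the deepest library of each drug and ranged from -8.67 to 2.17 without 1 library, with 1.33 without the first or the second doxorubicin library. Other per-library differences changed sign when 1 library was left out. Back-splice reads moved between -265 and 198 (-155 without the third bortezomib library). The median span moved between -1143 and 339 nt (303 nt without the third bortezomib library). The share on exon ends moved between -0.988 and 3.76 percentage points (-0.455 without the third doxorubicin library). The cause was not tested. The 2-read step, 3 libraries per drug and the authors' choice of rows limit what could be detected.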

Other observations

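Some circles on no functional list were also regular in 1 drug, and they were chosen after their values were seen. In the bortezomib libraries, a circle of exons 3 to 4 of Syt14, a synaptotagmin, had 3626, 2675 and 1973, and after doxorubicin 0, 0 and 2170. The circle of exons 2 to 6 of Glcci1, a glucocorticoid-induced gene, had 385, 190 and 449 after bortezomib and 0, 0 and 461 after doxorubicin. The circle of exon 2 of Csgalnact1, an enzyme of chondroitin sulfate synthesis, had 1078, 848 and 670 after bortezomib and 2146, 0 and 774 after doxorubicin. In each of these the doxorubicin libraries overlapped the bortezomib range, and none passed the test.

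On the doxorubicin side, the circle of exons 2 to 7 of Stx6, a syntaxin of the trans-Golgi network, had 4456, 2326 and 2143, and after bortezomib 0, 3418 and 2619. The circle of exons 2 to 5 of Fbxw4, an F-box gene, had 2023, 2659 and 2270 after doxorubicin and 2980, 1465 and 0 after bortezomib. In both of these the bortezomib libraries overlapped the doxorubicin range, and neither passed the test.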
